A study of Homo sapiens with 59 samples.

Results

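The genes described here encode the working parts of the lysosome: 18 lumenal hydrolases and their cofactors, 8 proteins of the lysosomal membrane, 12 subunits of the vacuolar proton pump (V-ATPase) and the adaptor SQSTM1. They were found by name, as 39 listed symbols looked up in a count table of 60675 genes. The list uses no threshold on a measured value, but it was drawn up with earlier results of these data known. All 39 were found, and all 39 passed the filter on low counts that left 18568 genes for testing. The table holds RNA-seq counts of A549 cells, a cell line from a human lung carcinoma, treated for 24 h with herbal extracts or with the DMSO vehicle. The study asked how the transcriptome responds to each extract over 3 doses.

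The 8 medicines were given as 70% ethanol extracts, making 25 groups of 1 to 3 libraries and 59 libraries in all. The vehicle group held 3 libraries; its labels give 0.1% DMSO and the series text 2%, and the files do not settle which is right. Bupleuri Radix was given at 190, 38 and 7.6 µg/mL for the high, medium and low dose, with 3 libraries each. Aconiti Lateralis Radix Preparata was given at 500, 100 and 20 µg/mL, with 3 libraries at the high and low dose and 2 at the medium dose. Citri Unshius Pericarpium and Cimicifugae Rhizoma had 3 libraries at each of 500, 100 and 20 µg/mL. Zizyphi Fructus and the mixed prescription Yijung-tang had 2 libraries at each of the same doses, and the prescription Banhasasim-tang had 1. For Coptidis Rhizoma the doses were 110, 22 and 4.4 µg/mL, with 2 libraries each. The labels do not say whether libraries of a group came from separate cultures, so p-values measure the spread between these libraries, which may be technical.

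Total expected counts ran from 17214755 to 39751161 per library. Library codes place Coptidis with Zizyphi, Citri with Cimicifugae, Bupleuri with Aconiti, and the prescriptions together, and the vehicle has a code of its own. A difference shared by a library set therefore cannot be told apart from a response to its extracts in a comparison with vehicle, whereas high against low dose lies within a set. A run of 4 libraries with consecutive codes stood apart on the first principal component of all genes tested, which held 18.2% of the variance: Citri high and medium replicate 3 and Cimicifugae medium and low replicate 2. They scored 41.02 to 107, and the next library, Citri medium replicate 2, scored 15.5. The 5 epithelial markers fixed as a check on A549 identity (KRT7, KRT8, KRT18, CDH1 and EPCAM) passed the filter and summed to 8173 to 8509 CPM (counts scaled to library size) in the vehicle libraries. In bulk RNA, fewer cells of a type and less RNA per cell cannot be told apart.

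The lysosome is the acidic compartment in which proteins, glycans and lipids from endocytosis and autophagy are broken down. The V-ATPase, a rotary pump with a membrane sector (V0) and an ATP-hydrolysing sector (V1), acidifies the lumen, and membrane proteins such as LAMP1 and LAMP2 protect the limiting membrane or carry ions and lipids across it. Many lysosomal genes carry a CACGTG-type element near their start, which the basic helix-loop-helix factors TFEB, TFE3 and MITF can bind, and these factors are held in the cytoplasm when nutrient signalling at the lysosome is active. SQSTM1, also called p62, delivers ubiquitinated cargo to autophagosomes and is itself degraded there.

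Promoter sequence was available from RefSeq (GRCh38.p14) for 28 of the 39 members, as 300-base windows around the start. The hexamer CACGTG, which reads the same on both strands, occurred in the windows of 10 of the 28 (35.7%), against 8.77% of 27305 genes with a window. By class it occurred in 4 of 13 lumenal members, 4 of 7 membrane members, 2 of 7 pump members and not in the window of SQSTM1. The longer TCACGTGA, which contains the hexamer, occurred in 5 of the 28 (17.9%) and in 1.18% of all genes. The windows below were chosen from those that hold the hexamer. They belong to NEU1, CTSA and CLCN7, whose dose response differed between Aconiti and Bupleuri, and to GAA, which fell at the Aconiti medium dose. They lie at chr6:31862772-31863071 (minus strand), chr20:45891085-45891384 (plus), chr16:1474979-1475278 (minus) and chr17:80101331-80101630 (plus), and capitals mark each CACGTG.
NEU1: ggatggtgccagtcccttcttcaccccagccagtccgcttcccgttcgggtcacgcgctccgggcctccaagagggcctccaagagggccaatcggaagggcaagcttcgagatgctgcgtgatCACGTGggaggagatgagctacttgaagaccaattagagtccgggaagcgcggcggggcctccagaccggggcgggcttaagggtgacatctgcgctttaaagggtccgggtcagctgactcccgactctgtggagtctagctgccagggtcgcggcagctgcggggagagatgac
CTSA: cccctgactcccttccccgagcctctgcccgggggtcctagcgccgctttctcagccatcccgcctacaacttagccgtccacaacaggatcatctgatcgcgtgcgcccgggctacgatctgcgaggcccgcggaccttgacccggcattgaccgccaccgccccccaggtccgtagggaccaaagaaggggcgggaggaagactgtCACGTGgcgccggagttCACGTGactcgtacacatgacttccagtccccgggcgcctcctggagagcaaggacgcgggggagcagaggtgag
CLCN7: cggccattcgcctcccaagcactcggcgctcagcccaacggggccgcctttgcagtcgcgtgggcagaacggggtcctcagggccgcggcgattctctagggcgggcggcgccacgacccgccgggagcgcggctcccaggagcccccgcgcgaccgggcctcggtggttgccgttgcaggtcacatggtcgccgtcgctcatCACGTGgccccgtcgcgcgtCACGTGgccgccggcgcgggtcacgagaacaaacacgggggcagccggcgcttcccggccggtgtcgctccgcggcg
GAA: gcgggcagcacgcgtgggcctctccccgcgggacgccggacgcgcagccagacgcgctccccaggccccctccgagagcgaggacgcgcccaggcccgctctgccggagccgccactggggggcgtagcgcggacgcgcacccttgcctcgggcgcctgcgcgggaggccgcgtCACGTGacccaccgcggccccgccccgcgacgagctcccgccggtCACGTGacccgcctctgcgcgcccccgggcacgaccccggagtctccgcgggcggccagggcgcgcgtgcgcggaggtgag

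NEU1 held 1 hexamer, 126 bases before the start, and the other 3 windows held 2 each, one of them 42 bases before the start in CTSA, 47 in CLCN7 and 76 in GAA. Of the 12 members called at the high dose of Bupleuri, described next, 9 had a window and 3 of those held the hexamer. Of the 27 not called, 19 had a window and 7 held it, among them LAMP1 with 6 copies. These counts describe the sequence only, and no difference between called and other members was tested.

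Bupleuri Radix at 190 µg/mL had more members called than any other group against vehicle in the fit of all 59 libraries. A fit of only the extracts compared called 27 at the Coptidis high dose and 26 here. The share of all genes called in that fit is not reported here. Of the 39 members, 12 rose against vehicle and none fell (edgeR quasi-likelihood test, Benjamini-Hochberg adjusted p below 0.05 over all genes tested, here termed called). Among all genes tested, 2.05% were called higher and 1.31% lower in that comparison, 3.36% in either direction. The fold change was positive for 38 of 39 members, with a median log2 fold change of 0.27 against 0.0049 over all genes. By class, 8 of 18 lumenal members, 2 of 8 membrane members, 1 of 12 pump members and SQSTM1 rose. Median log2 fold changes were 0.31, 0.38 and 0.21 for the lumenal, membrane and pump classes.

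**Figure D1:**
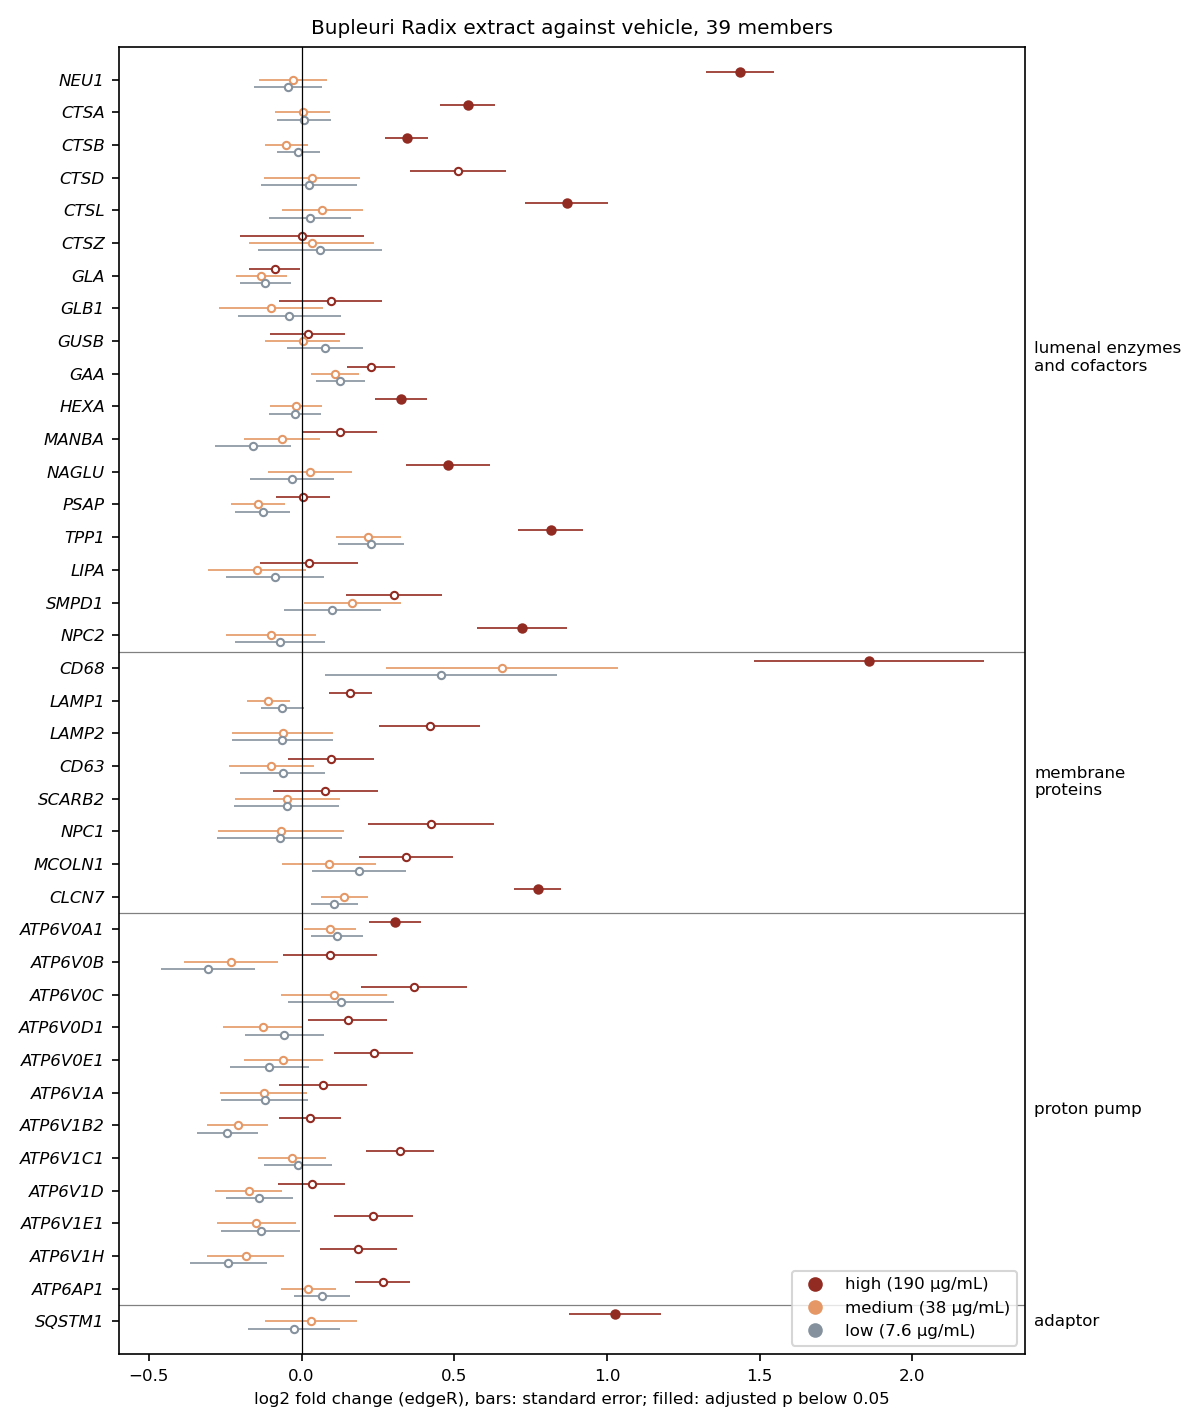
Log2 fold change against vehicle (horizontal axis) of the 39 members at the 3 doses of Bupleuri Radix, with standard errors as bars; filled points have an adjusted p below 0.05. All 12 filled points belong to the high dose and lie to the right of 0, while the medium and low doses sit close to 0 for most members.

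Among the lumenal enzymes NEU1, the sialidase that removes terminal sialic acids, changed most. Its level was 38.8, 39.2 and 38.9 CPM in the 3 high-dose libraries and 13.2, 14.4 and 15.6 CPM in the vehicle libraries. Every high-dose library lay far above every vehicle library, and no other library of the study exceeded 25.8 CPM. The fold change was 2.71 (log2 1.44, SE 0.11, adjusted p 1.18e-11). At the medium dose NEU1 read 15.0, 13.5 and 13.9 CPM and at the low dose 13.1, 14.6 and 14.2 CPM, within or just below the vehicle range.

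CTSL, the cysteine protease cathepsin L, read 345, 363 and 350 CPM at the high dose against 185, 197 and 198 CPM with vehicle. The groups did not overlap, and the log2 fold change was 0.87 (SE 0.13, adjusted p 3.85e-05). TPP1, a serine protease that cuts tripeptides from protein ends, read 94.7, 96.2 and 89.9 CPM against 53.8, 53.3 and 52.4 CPM. All 3 libraries lay above the vehicle range, with a log2 fold change of 0.82 (SE 0.11, adjusted p 1.57e-06). TPP1 was already at 58.8 to 64.7 CPM at the low dose, so its rise over the low dose was smaller, at 0.59 (SE 0.11, adjusted p 0.000524).

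NPC2 is the soluble protein that hands cholesterol to NPC1 in the lysosomal membrane. It read 69.2, 66.2 and 75.1 CPM at the high dose and 40.1, 42.7 and 44.9 CPM with vehicle, without overlap (log2 fold change 0.72, SE 0.15, adjusted p 0.00196). CTSA, the protective protein that stabilises NEU1 in a complex, read 109, 106 and 90.9 CPM against 67.3, 66.4 and 76.3 CPM. The third high-dose library was the lowest and still above every vehicle library (log2 fold change 0.54, SE 0.09, adjusted p 9.97e-05). NAGLU, which degrades heparan sulfate, CTSB, cathepsin B, and HEXA, the alpha subunit of beta-hexosaminidase, rose by 0.48, 0.34 and 0.33 on the log2 scale. Without the low-count filter the calls of CTSB (adjusted p 0.178) and HEXA (0.255) ended. Leaving out Bupleuri high replicate 1 or 2, or vehicle replicate 1 or 2, ended the calls of HEXA (adjusted p 0.0544 to 0.108) and NAGLU, whose call also ended without vehicle replicate 3 (0.0966 to 0.153).

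The other 10 lumenal members were not called. CTSD, cathepsin D, stood at 283, 274 and 280 CPM against 195, 184 and 209 CPM with vehicle, and its log2 fold change of 0.51 carried a standard error of 0.16 and an adjusted p of 0.065. PSAP, the precursor of the saposin activators, read 712, 668 and 760 CPM against 699, 700 and 733 CPM, with overlapping groups. The remaining 8 (CTSZ, GLA, GLB1, GUSB, GAA, MANBA, LIPA and SMPD1) lay between -0.09 and 0.30 in log2 fold change, and only GLA was negative.

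Among the membrane proteins 2 rose. CD68, a heavily glycosylated relative of the LAMP proteins, read 21.5, 28.0 and 17.6 CPM at the high dose against 6.34, 5.68 and 6.50 CPM with vehicle. Its 3 high-dose libraries spread more than those of NEU1 but all lay above the vehicle range (log2 fold change 1.86, SE 0.38, adjusted p 0.0019). CLCN7, the chloride-proton exchanger of the lysosomal membrane, read 83.8, 84.3 and 81.0 CPM against 47.3, 49.4 and 49.0 CPM. Its libraries were tightly grouped and did not overlap (log2 fold change 0.77, SE 0.08, adjusted p 3.37e-09).

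CD68 is widely used as a macrophage marker, so other macrophage markers were read beside it. Of 10 such markers (PTPRC, CD14, CSF1R, CD163, ITGAM, LYZ, MSR1, MRC1, C1QA and FCGR1A) 2 passed the filter, and the 10 summed to 3.68 to 3.95 CPM at the high dose and 3.07 to 3.53 CPM with vehicle. CD163 and C1QA were at 0 in every library of both groups. In the GENCODE 29 annotation CD68 (chr17:7579467-7582113) also overlaps AC016876.2 on the same strand, which had a mean of 27.9 CPM with vehicle, so the division of reads between the 2 genes is uncertain. Such an overlap also touches MCOLN1, the lysosomal calcium channel, through PNPLA6.

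The other 6 membrane members were positive but not called at the high dose. LAMP2, a structural glycoprotein of the limiting membrane, read 153, 155 and 151 CPM against 116, 115 and 112 CPM, without overlap, and its adjusted p was 0.19. NPC1, the cholesterol exporter, read 87.3, 89.9 and 80.4 CPM against 67.5, 65.0 and 59.4 CPM, also without overlap, with an adjusted p of 0.334. LAMP2 read 52.3 CPM and NPC1 27.0 CPM in Citri high replicate 3, one of the 4 libraries that stand apart. Without those 4 libraries 21 members were called at the high dose of Bupleuri, and the share of all genes in that fit is not reported here.

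All 12 pump members had positive fold changes at the high dose, between 0.03 and 0.37 in log2 terms, and 1 was called. ATP6V0A1, the large membrane-sector subunit that couples rotation to proton flow, read 80.9, 77.4 and 79.7 CPM against 65.5, 63.3 and 63.8 CPM. The groups did not overlap (log2 fold change 0.30, SE 0.08, adjusted p 0.0345). The call ended when any 1 of the 6 libraries was left out (adjusted p 0.0718 to 0.128). ATP6V0A1 already read 69.1, 66.1 and 70.2 CPM at the medium and 71.6, 68.6 and 68.6 CPM at the low dose, above every vehicle library. ATP6V0C, which forms the proton-carrying ring, had the largest pump value, 134, 140 and 128 CPM against 98.8, 101 and 111 CPM, with an adjusted p of 0.314. SQSTM1 read 1624, 1652 and 1643 CPM against 778, 796 and 842 CPM, without overlap (log2 fold change 1.03, SE 0.15, adjusted p 1.48e-05).

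**Figure D2:**
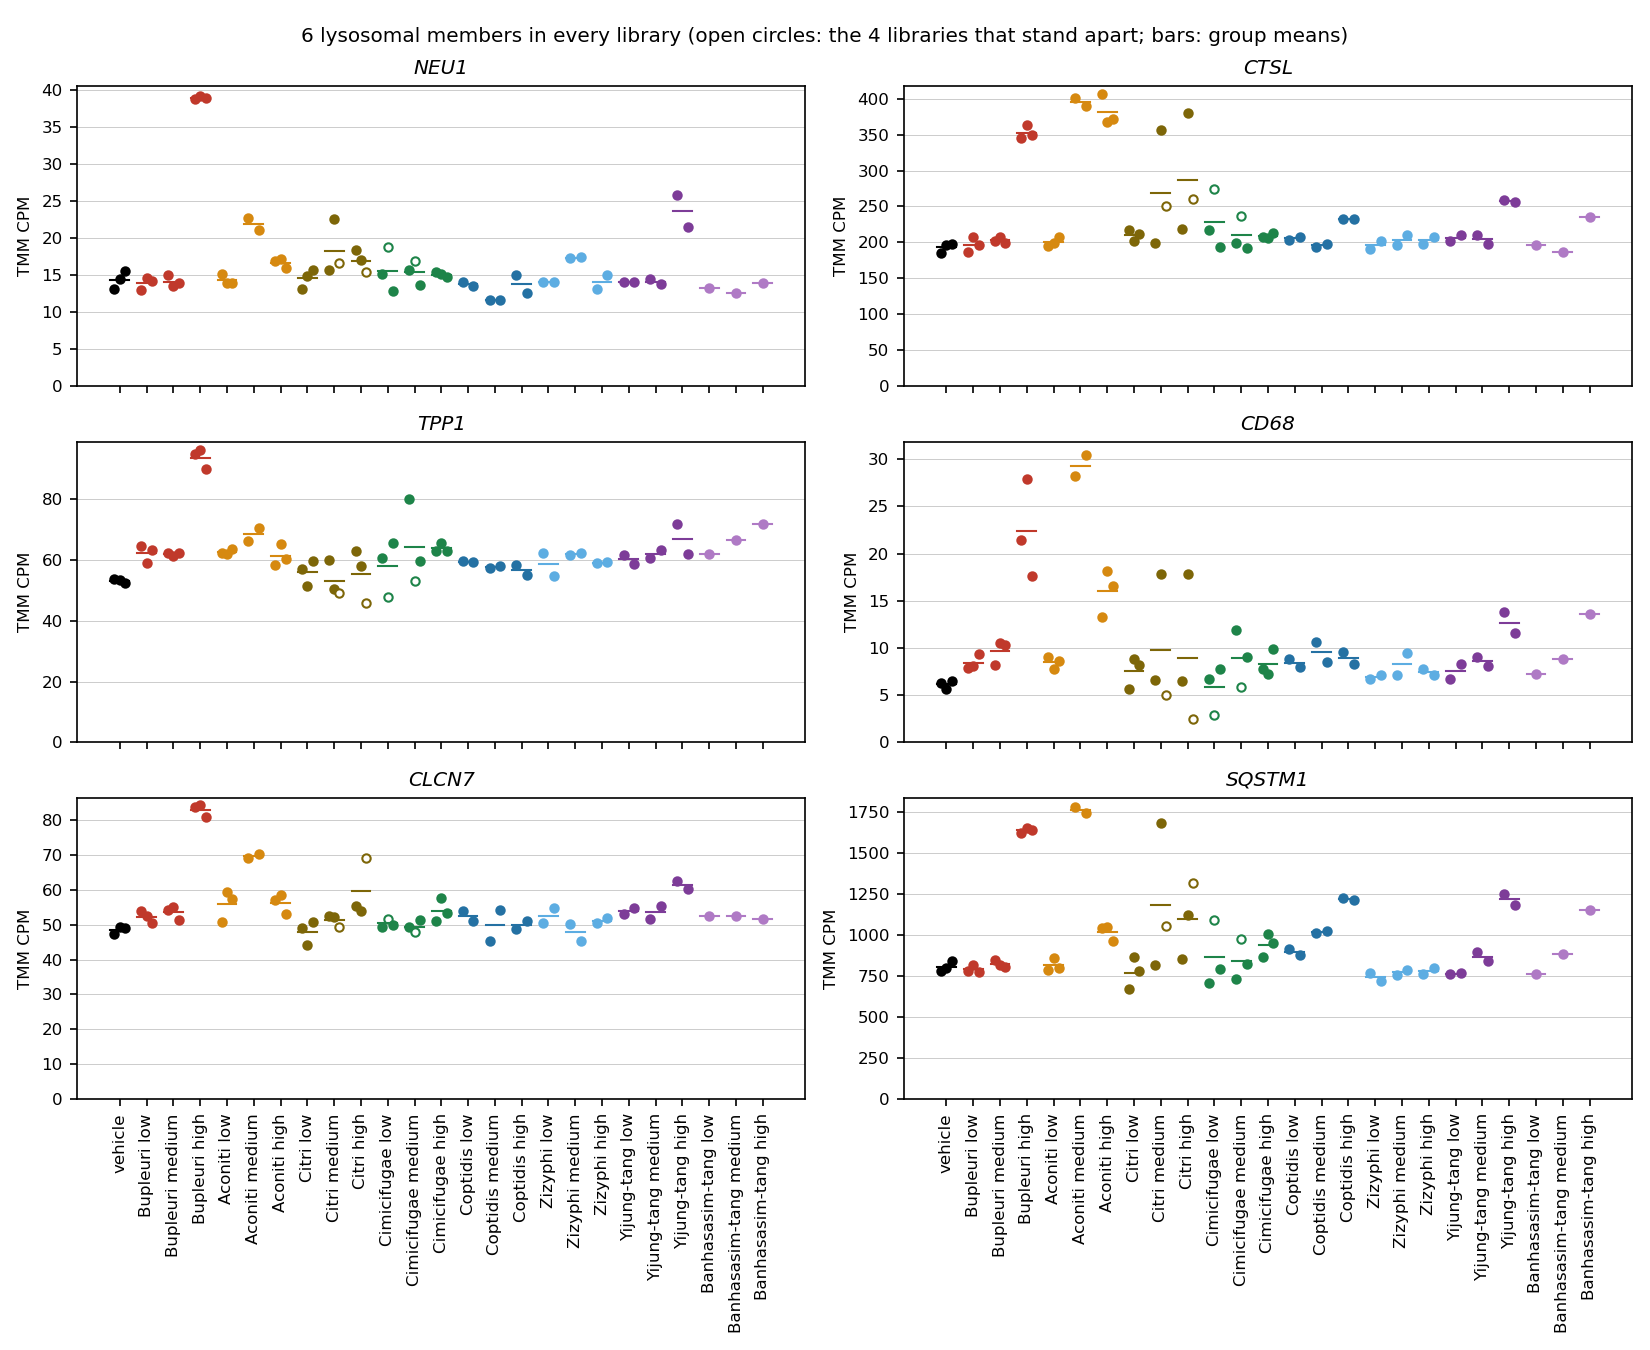
Level (TMM CPM, linear axis from 0) of 6 members in every library, by extract and dose; points are libraries, bars group means, and open circles the 4 libraries that stand apart. NEU1, CTSL, TPP1, CLCN7 and SQSTM1 lie well above vehicle in all 3 Bupleuri high-dose libraries, and CTSL, CD68 and SQSTM1 in both Aconiti medium-dose libraries.

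The rise at the high dose was present within the Bupleuri libraries as well, in a comparison that does not use the vehicle. Against the low dose 11 members rose and none fell, where 1.02% of all genes tested were called higher, and 37 of 39 fold changes were positive with a median log2 value of 0.28. They were the 12 named above without ATP6V0A1. NEU1 rose by 1.48 on the log2 scale (SE 0.11, adjusted p 4.07e-12), SQSTM1 by 1.05, CTSL by 0.84 and NPC2 by 0.79. CD68 read 7.93, 8.10 and 9.37 CPM at the low dose, above all vehicle libraries, so its rise over the low dose was smaller than that over vehicle, at 1.40 (SE 0.37, adjusted p 0.0344).

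CD68's within-extract call ended when any library other than high replicate 3 was left out (adjusted p 0.0859 to 0.219), HEXA's when any other than high replicate 3 was (0.0553 to 0.117), and NAGLU's when any 1 of the 6 was (0.0586 to 0.205). Without the low-count filter the within-extract calls of CTSB (adjusted p 0.284) and HEXA (0.353) ended. The 12 pump members were again all positive, from 0.17 to 0.43, and none was called by edgeR, although 8 had an unadjusted p below 0.05. At the medium and the low dose no member was called against vehicle. In each of those comparisons 2 members had an unadjusted p below 0.05 and DESeq2 called none, with 0.00539% and 0% of all genes called. A fit of only the extracts compared called 6 members at the medium and 5 at the low dose. The fit without the 4 libraries that stand apart called 1 at each. The shares of all genes in those fits are not reported here. Beside the high-dose calls, the 5 epithelial markers summed to 5848 to 6441 CPM, below the vehicle range, and the part of this shift in the result was not tested.

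Aconiti Lateralis Radix Preparata had members called in both directions at the medium dose and fewer at the high dose, as was the case for all genes tested (17.5% and 4.65% called). At 100 µg/mL, with 2 libraries, 6 members rose and 3 fell against vehicle, in a comparison in which 8.23% of all genes were called higher and 9.28% lower. The median log2 fold change over members was 0.03 against -0.0089 over all genes. Of the lumenal enzymes 3 (CTSL, NEU1 and TPP1), 2 membrane proteins (CD68 and CLCN7) and SQSTM1 rose, and 2 lumenal enzymes (LIPA and GAA) and 1 pump subunit (ATP6V1A) fell.

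CD68 read 28.2 and 30.4 CPM at the medium dose, the highest group of the study, against at most 6.50 CPM with vehicle (log2 fold change 2.25, SE 0.40, adjusted p 5.24e-05). Both libraries were above every library of every other group. The 10 macrophage markers summed to 1.61 to 1.72 CPM in these libraries, below the vehicle range, with CD163, MRC1 and C1QA at 0. SQSTM1 read 1779 and 1748 CPM, again the highest group (log2 fold change 1.13, SE 0.17, adjusted p 1.8e-06). CTSL read 401 and 389 CPM, about the level of the high dose (log2 fold change 1.03, SE 0.15, adjusted p 1.15e-06).

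NEU1 reached 22.8 and 21.2 CPM, above vehicle but below the Bupleuri high dose (log2 fold change 0.61, SE 0.12, adjusted p 0.000235). CLCN7 reached 69.1 and 70.3 CPM (log2 fold change 0.52, SE 0.08, adjusted p 1.1e-05). TPP1 read 66.3 and 70.6 CPM, a log2 fold change of 0.36 whose call ended without Aconiti medium replicate 1 or 2 or vehicle replicate 2 or 3 (adjusted p 0.0518 to 0.195). LIPA, the lysosomal acid lipase, read 47.7 and 45.01 CPM against 69.3, 68.6 and 65.0 CPM, and both libraries lay below the vehicle range. It fell by 0.54 on the log2 scale (SE 0.18, adjusted p 0.0314).

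GAA, which degrades lysosomal glycogen, read 48.9 and 48.4 CPM against 63.4, 59.5 and 64.2 CPM and fell by 0.36 (SE 0.09, adjusted p 0.00325). ATP6V1A, the catalytic subunit of the ATP-hydrolysing sector, read 46.6 and 45.4 CPM against 62.8, 63.5 and 64.3 CPM and fell by 0.47 (SE 0.16, adjusted p 0.0401). The calls of LIPA and ATP6V1A ended when any 1 of the 5 libraries was left out (adjusted p 0.0538 to 0.225 and 0.0819 to 0.231), and that of GAA without medium replicate 2 (0.0527). Without medium replicate 2, 5 members were called in place of 9.

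Within the Aconiti libraries, the medium dose had 8 members called higher and 1 lower than the low dose, where 7.93% and 9.87% of all genes were called. Pump members made up 3 of the 8. ATP6V0B, a ring subunit of the membrane sector, read 60.6 and 59.4 CPM against 39.7, 45.03 and 40.7 CPM at the low dose (log2 fold change 0.52, SE 0.17, adjusted p 0.0265). ATP6V1C1 and ATP6V1B2, subunits of the V1 sector, rose by 0.38 and 0.31. Both calls ended without the low-count filter, with an adjusted p of 0.228 for ATP6V1B2. ATP6V1A read 59.7, 55.7 and 60.0 CPM at the low dose and was not called lower in this comparison (log2 fold change -0.35, SE 0.16). The pump subunits therefore did not move as a block at the medium dose: 8 of 12 were positive against vehicle and 4 negative.

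CD68, CTSL, SQSTM1, NEU1 and CLCN7 were the other members higher than at the low dose, and GAA the one lower, at -0.54 (SE 0.09, adjusted p 1.81e-05), with 65.4, 74.9 and 71.3 CPM at the low dose. Leaving out medium replicate 2 left 5 of these 9 calls. The calls of ATP6V0B, ATP6V1C1 and ATP6V1B2 each ended without 4 of the 5 libraries, both medium-dose libraries among them (adjusted p 0.0629 to 0.124, 0.0634 to 0.132 and 0.106 to 0.175), and that of CLCN7 without medium replicate 2 (0.0518).

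At the high dose, 500 µg/mL, 2 members rose against vehicle and none fell, with 2.56% and 2.09% of all genes called, 4.65% in either direction. CTSL read 406, 368 and 371 CPM (log2 fold change 0.98, SE 0.13, adjusted p 4.52e-06), and it also rose against the low dose of 195, 199 and 207 CPM (0.93, SE 0.13, adjusted p 1.19e-05). It was the only member called in the latter comparison, where 1.56% of all genes were called higher. CD68 read 13.3, 18.2 and 16.6 CPM (log2 fold change 1.38, SE 0.37, adjusted p 0.0226), and its call ended when any library other than high replicate 1 was left out (0.0588 to 0.103).

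Between the 2 doses, SQSTM1, NEU1 and CLCN7 were higher and GAA lower at the medium dose, with 3.14% of all genes called higher and 4.64% lower. SQSTM1 was at 1044, 1047 and 964 CPM at the high dose, and the difference of 0.79 in log2 terms (SE 0.17, adjusted p 0.00113) held without each library in turn. NEU1 was at 16.9, 17.1 and 16.0 CPM at the high dose (difference 0.40, SE 0.12, adjusted p 0.0336). Its call ended without any 1 high-dose library (adjusted p 0.058 to 0.114). CLCN7 was at 57.1, 58.5 and 53.0 CPM (difference 0.31, SE 0.08) and GAA at 63.0, 66.7 and 58.5 CPM (difference -0.37, SE 0.09). Of the 4 calls, 1 was left without medium replicate 1 or 2 and 2 without high replicate 3. CTSL did not follow this order, with overlapping libraries at the 2 doses. At the low dose no member was called against vehicle by edgeR or DESeq2, with 4 at an unadjusted p below 0.05. Of all genes edgeR called 0% there.

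**Figure D3:**
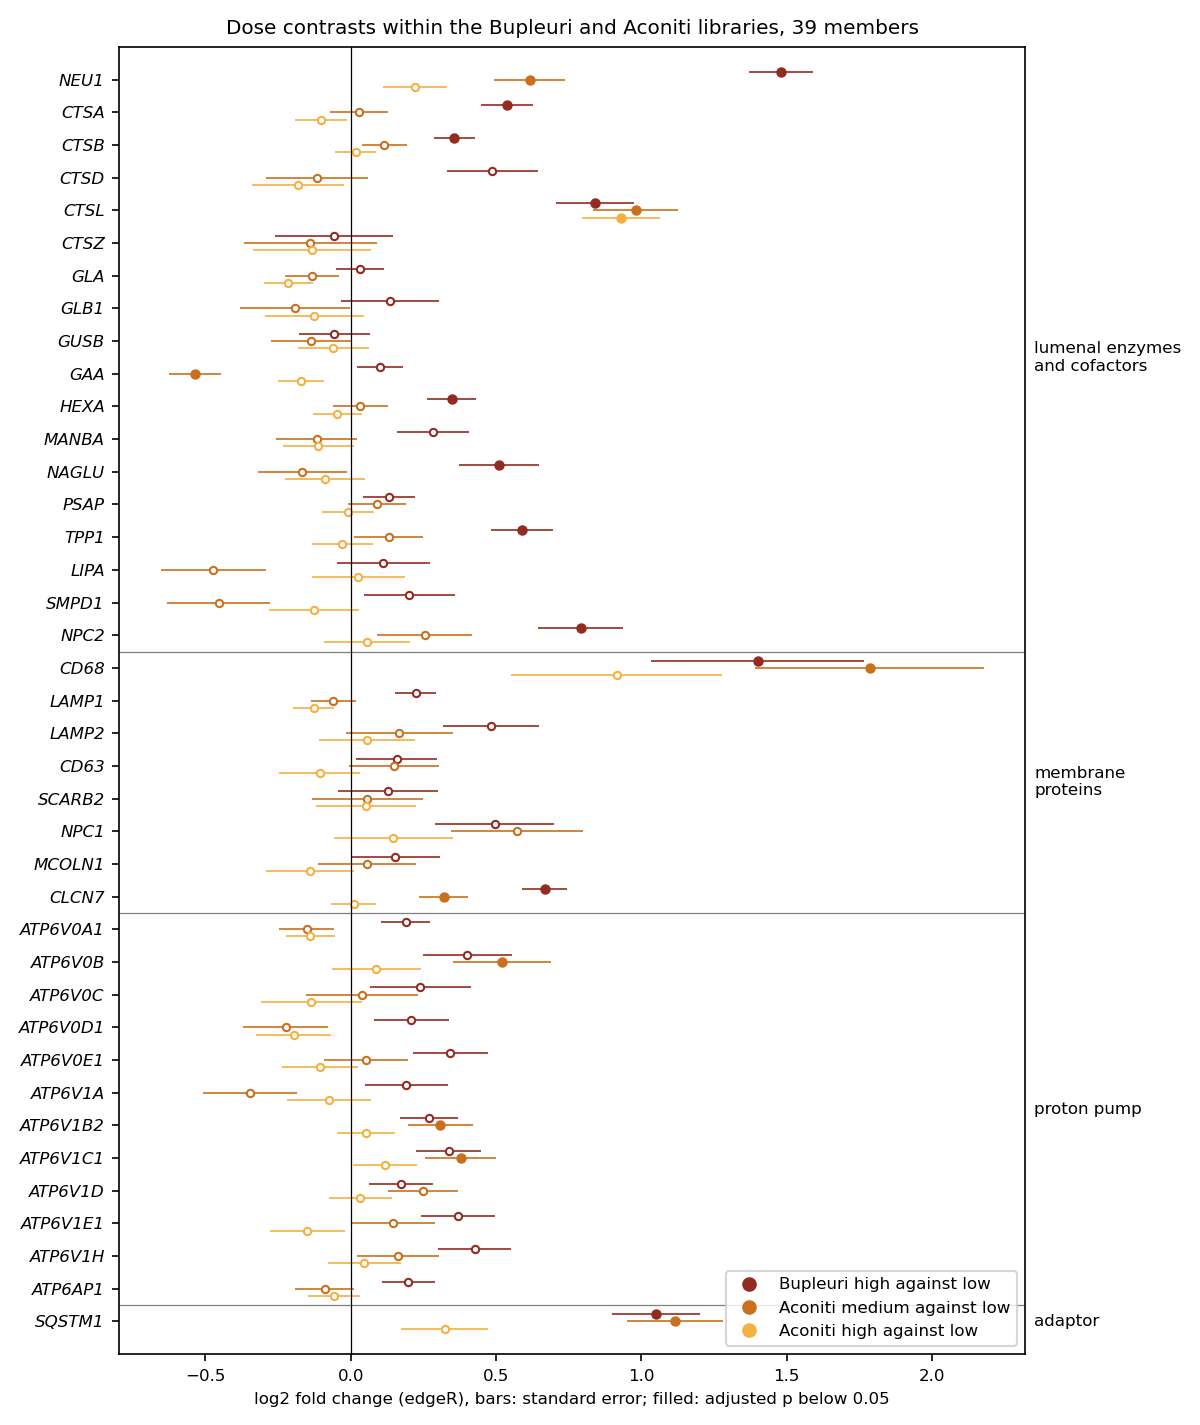
Log2 fold change against the low dose of the same extract (horizontal axis) for the 39 members at the Bupleuri high, Aconiti medium and Aconiti high dose, with standard errors as bars; filled points have an adjusted p below 0.05. CTSL is shifted by 0.84 to 0.98 in all 3 contrasts, whereas NEU1 is shifted by 1.48 at the Bupleuri high dose and is not called at the Aconiti high dose.

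Whether high against low dose differed between the 2 extracts of this library set was tested directly. For 3 members the change was smaller for Aconiti than for Bupleuri, and for none was it larger, with 0.226% of all genes called lower and 0.0916% higher. The difference of log2 fold changes was -1.26 for NEU1 (SE 0.16, adjusted p 6.59e-06), -0.66 for CLCN7 (SE 0.11, adjusted p 0.000658) and -0.64 for CTSA (SE 0.13, adjusted p 0.00865). These 3 calls were present whichever of the 12 libraries was left out, but without the low-count filter those of CLCN7 (adjusted p 0.127) and CTSA (0.163) ended. CTSL rose for both extracts, and its difference of 0.09 (SE 0.19) was not called. The doses were 190 and 7.6 µg/mL for Bupleuri and 500 and 20 µg/mL for Aconiti, so the contrasts are not matched by dose.

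Coptidis Rhizoma at 110 µg/mL was the condition in which pump members were lowest among those tested. In all, 4 members fell and 1 rose against vehicle, where 6.14% of all genes were called lower and 6.41% higher, so the share of members called is near that of all genes. All 12 pump members were negative, with a median log2 fold change of -0.30 against -0.0067 over all genes. ATP6V0E1, a small membrane-sector subunit, read 83.2 and 81.55 CPM against 113, 115 and 126 CPM and fell by 0.52 (SE 0.15, adjusted p 0.0132). ATP6V0D1, which joins the ring to the rotor stalk, read 39.4 and 36.1 CPM against 49.1, 48.3 and 55.7 CPM and fell by 0.43 (SE 0.15, adjusted p 0.0444). For both genes the treated libraries lay wholly below vehicle. The call of ATP6V0D1 ended with RLE size factors and without the low-count filter. It also ended without any 1 vehicle library (adjusted p 0.0674 to 0.188), and that of ATP6V0E1 without vehicle replicate 3 (0.0678). Mitochondrial ribosomal RNA took 6.42% and 6.09% of counts in the Coptidis high-dose libraries and 2.24 to 2.43% with vehicle. It took 10.3 to 11.1% at the medium and 9.13 to 9.36% at the low dose. The 5 epithelial markers summed to 5965 to 6011 CPM at the high dose, below the vehicle range, and 2 of them fell. The part of these differences in the result was not tested.

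LAMP1, a major glycoprotein of the lysosomal membrane, read 83.7 and 82.4 CPM against 109, 106 and 110 CPM and fell by 0.38 (SE 0.08, adjusted p 0.000686). GLA, alpha-galactosidase A, read 98.7 and 96.2 CPM against 120, 114 and 126 CPM and fell by 0.30 (SE 0.09, adjusted p 0.0281). SQSTM1 moved the other way, to 1229 and 1215 CPM (log2 fold change 0.60, SE 0.17, adjusted p 0.011). NPC2 read 31.4 and 30.4 CPM, below the vehicle range, with a log2 fold change of -0.46 and an adjusted p of 0.0644. Of the 5 calls, that of LAMP1 was present without any 1 library but ended without the low-count filter (adjusted p 0.141). Only 1 call was left without Coptidis high replicate 2 or 3, 2 without vehicle replicate 3 and 3 without vehicle replicate 1.

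Within the Coptidis libraries, no member was called by edgeR between the high and low dose, 5 had an unadjusted p below 0.05 and DESeq2 called none (2.31% of all genes were called). The count was 21 in a fit of only the extracts compared and 4 without the 4 libraries that stand apart. The shares of all genes in those fits are not reported here. ATP6V0E1 read 107 and 112 CPM at the low dose and LAMP1 102 and 94.9 CPM, in both cases above the high dose. Against vehicle neither tool called any member at the other doses, although 6 had an unadjusted p below 0.05 at 22 µg/mL and 1 at 4.4 µg/mL. Of all genes 3.27% were called at the medium dose, 1.76% higher, and 0.447% at the low. The difference between Coptidis and Zizyphi in high against low dose was called for no member, with 3 at an unadjusted p below 0.05, none by DESeq2 and 0.355% of all genes called.

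**Figure D4:**
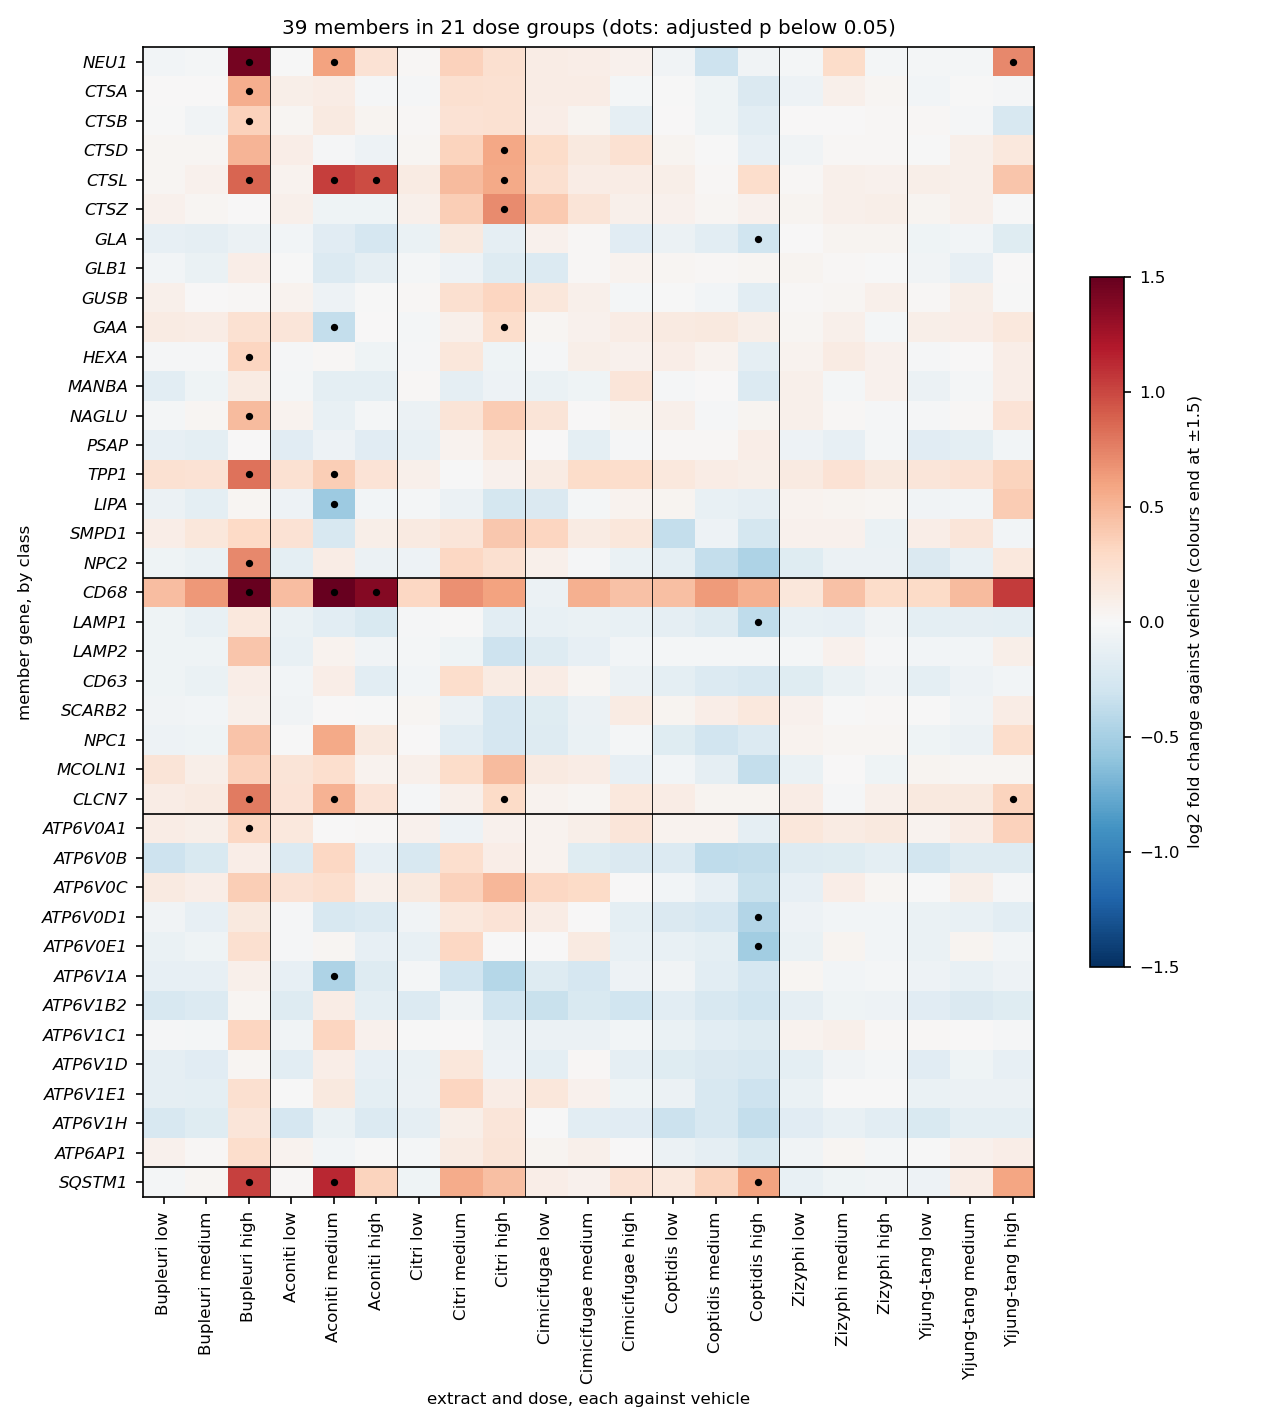
Log2 fold change against vehicle (colour, red higher and blue lower, ending at ±1.5) of the 39 members (rows, by class) in 21 extract and dose groups (columns); dots mark an adjusted p below 0.05. The Bupleuri high column is red over most rows, and the pump rows are blue in the Coptidis high column.

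At 500 µg/mL of Yijung-tang 2 members were called higher than with vehicle, as were 0.781% of all genes. NEU1 read 25.8 and 21.5 CPM against at most 15.6 CPM with vehicle (log2 fold change 0.72, SE 0.12, adjusted p 0.000298). It also rose over the low dose, 14.1 and 14.0 CPM, by 0.75 (SE 0.13, adjusted p 0.000914), the only member called there, where 0.285% of all genes were. CLCN7 read 62.5 and 60.4 CPM (log2 fold change 0.34, SE 0.08, adjusted p 0.0267). At the low dose it read 53.1 and 54.7 CPM, also above every vehicle library. Its call ended without the low-count filter (adjusted p 0.509). Without Yijung-tang high replicate 1 both NEU1 calls ended (adjusted p 0.0703 against vehicle and 0.108 against the low dose), and CLCN7's call ended without any 1 of the 5 libraries (0.0538 to 0.334). CTSL, at 259 and 256 CPM, and SQSTM1, at 1250 and 1183 CPM, lay above every vehicle library without being called. The 5 epithelial markers summed to 6441 to 6804 CPM at the high dose, below the vehicle range, and their part in the result was not tested. No member was called at the medium or low dose by edgeR or DESeq2 or at an unadjusted p below 0.05. Of all genes edgeR called 0.0108% at the medium and 0% at the low dose.

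At the high dose of Citri Unshius Pericarpium 5 members were called higher, where 3.52% of all genes were. Each call ended when any 1 of several libraries was left out. CTSZ, the carboxypeptidase cathepsin Z, read 88.5, 96.0 and 231 CPM in replicates 1, 2 and 3 against 82.0, 86.1 and 85.0 CPM with vehicle. CTSD read 209, 238 and 431 CPM and GAA 70.9, 68.9 and 85.2 CPM in the same order. In each case replicate 3, a library that stands apart, was the highest, as it was for CLCN7 with 55.5, 53.9 and 69.3 CPM. CTSL instead read 219, 380 and 260 CPM, with replicate 2 the highest.

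Without high replicate 3, or without any 1 vehicle library, no member was called. Without high replicate 1 the count was 21 and without replicate 2 it was 8. The shares of all genes called in those fits are not reported here, so the counts are not a result about the members. Replicate 2 of the medium dose was also high, with 356 CPM for CTSL, 17.9 for CD68, 1687 for SQSTM1 and 22.6 for NEU1, against 199, 6.61, 818 and 15.7 CPM in replicate 1. Against the low dose 5 members were called (CTSD, SQSTM1, NAGLU, CLCN7 and GAA), where 3.12% of all genes were called higher. NAGLU read 32.0, 31.1 and 52.8 CPM at the high dose and 27.1, 27.2 and 29.1 CPM at the low dose. Leaving out high replicate 3 or any 1 low-dose library left no call, and leaving out high replicate 1 or 2 gave 19 or 8. The shares of all genes called in these fits are likewise not reported here. At the medium and low dose no member was called by edgeR or DESeq2, with 9 and 1 at an unadjusted p below 0.05. Of all genes edgeR called 0% at the medium and 0.00539% at the low dose.

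In Citri high replicate 3 the class medians differed, but each class had members below and members above the vehicle range. The median log2 difference from the vehicle mean was 0.37 over lumenal members, 0.20 over pump members and -0.70 over membrane members. Cimicifugae low replicate 2 had values of 0.33, 0.23 and -0.42. Among membrane members LAMP2, SCARB2 and NPC1 stood at 52.3, 44.1 and 27.0 CPM in the Citri library against vehicle means of 114, 92.2 and 64.0 CPM. CD68 and LAMP1 were also below the vehicle range there. CD63, MCOLN1 and CLCN7 were above it, at 319, 19.1 and 69.3 CPM. Of the lumenal members GLB1 and LIPA read 22.9 and 30.1 CPM, below the range, and CTSD and CTSZ lay above it. Of the pump members ATP6V1A read 34.2 CPM, below the range, and ATP6V1H 49.3 CPM, above it. Genes annotated as antisense summed to 4600 CPM in the Citri library and 4224 CPM in the Cimicifugae library, against 2761 to 2805 CPM with vehicle, and the part of this in the class values was not tested.

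**Figure D5:**
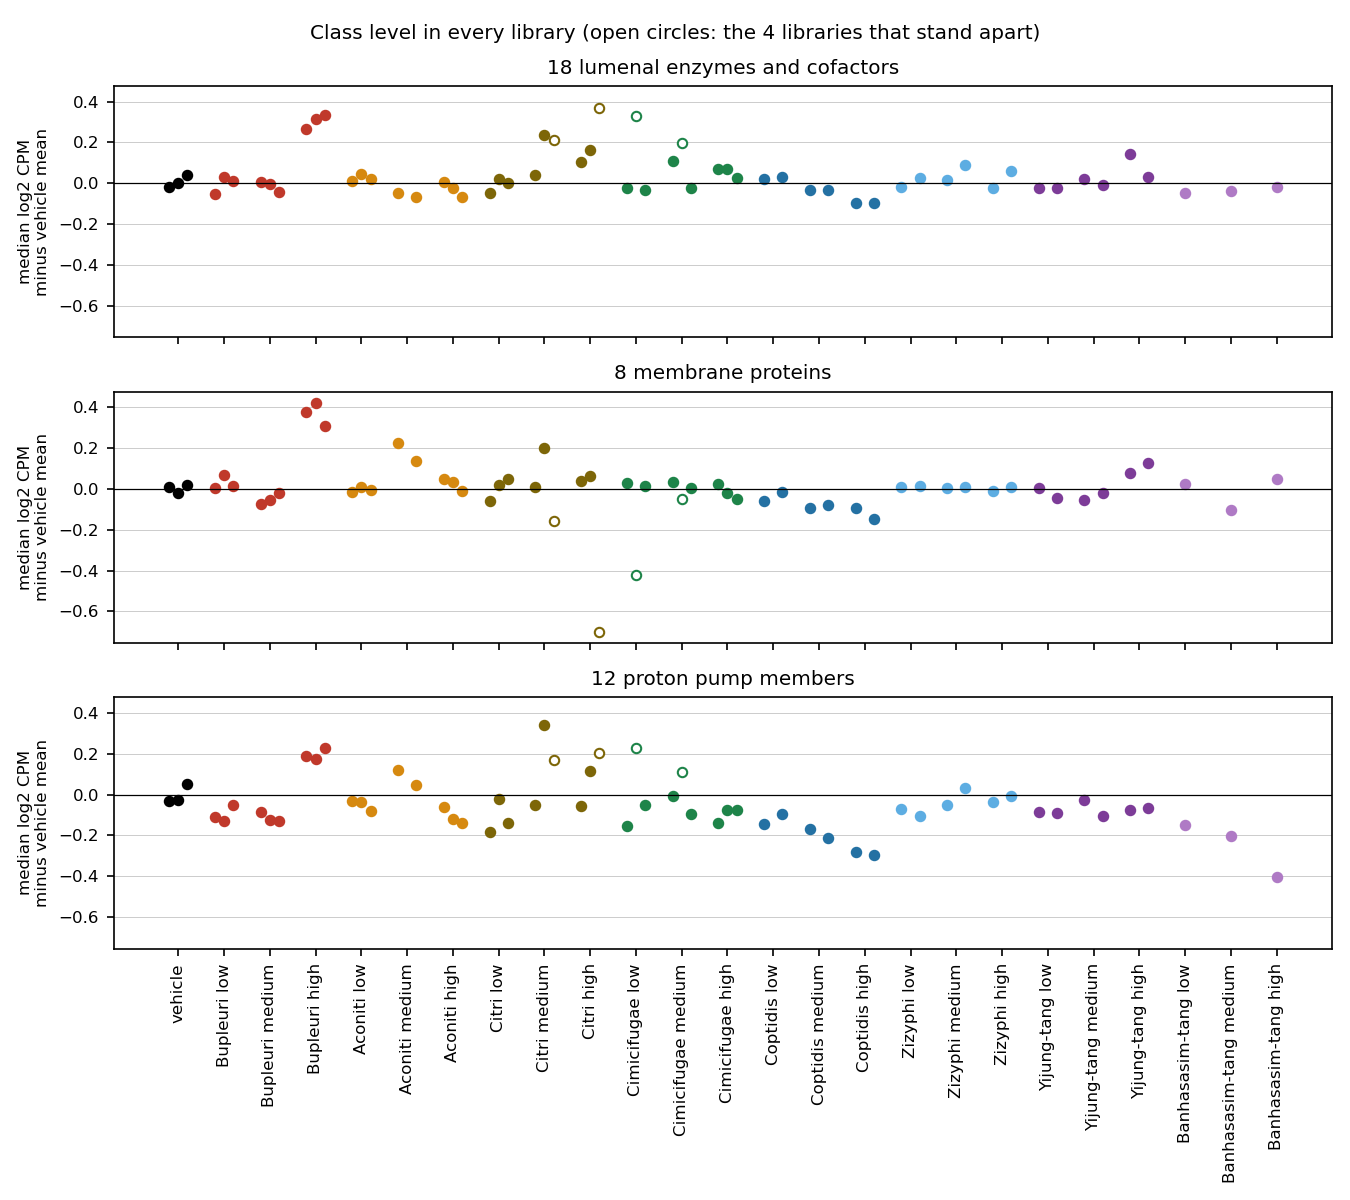
Median over the members of each class of the log2 CPM difference from the vehicle mean (vertical axis) in every library, by extract and dose; open circles are the 4 libraries that stand apart. The 3 Bupleuri high-dose libraries lie above 0 in all classes, and the pump class lies below 0 in 44 of the 56 extract libraries. The median over all genes tested, not drawn, lies below 0 in 11.

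Cimicifugae Rhizoma and Zizyphi Fructus had no member called at any dose or between high and low dose, by edgeR or DESeq2. Of all genes 0.377%, 0.0269% (0.0162% higher) and 0% were called at the high, medium and low dose of Cimicifugae, and none for Zizyphi. Members with an unadjusted p below 0.05 numbered 4, 2 and 2 at those Cimicifugae doses and 3 between high and low, whereas Zizyphi had 1, at the medium dose. Between Cimicifugae and Citri, high against low dose differed for 4 lumenal members, all in the direction of a smaller change for Cimicifugae, as did 6.29% of all genes. Differences were -0.96 for CTSZ (SE 0.29), -0.62 for NAGLU (SE 0.19), -0.45 for CTSB (SE 0.10) and -0.40 for CTSA (SE 0.13). CTSZ read 88.9, 162 and 80.8 CPM at the low dose of Cimicifugae and 88.8, 89.0 and 88.7 CPM at its high dose. Without Citri high replicate 3 or Cimicifugae low replicate 2 no call of this difference was left. The same held without any 1 Cimicifugae high library and without Citri low replicate 1 or 3. Without Citri low replicate 2 the count was 5, and without any 1 of the other 4 libraries it was 11 to 20. The shares of all genes called in those fits are not reported here.

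Banhasasim-tang had 1 library a dose, so there is no replicate check and no test. At 500 µg/mL 9 of 12 pump members were more than 1.2-fold below the vehicle mean, a bound chosen with the values known, where 25.5% of all genes were that low. The median ratio to the vehicle mean was 0.756 over the pump, 0.987 over lumenal members and 0.993 over all genes. ATP6V0D1 read 34.9 CPM, ATP6V1B2 57.2 CPM and ATP6V1C1 54.6 CPM, all below the vehicle range. SQSTM1 read 1154 CPM and CD68 13.6 CPM, above it. Mitochondrial ribosomal RNA took 15.2% of counts in this library, 11.5% at the medium and 3.87% at the low dose, and its part in these values was not tested. The number of pump members that low was 5 for the medium and 1 for the low dose, with 15.9% and 12.9% of all genes that low.

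Over the whole study the members differed widely in how far they moved. The highest of the 25 group means was 5.03 times the lowest for CD68, 3.35 times for NEU1 and 2.37 times for SQSTM1, and 1.24 times for GLB1, beta-galactosidase, and 1.27 times for PSAP. Bupleuri high was the highest group for 14 members and Citri high for 9. Coptidis high was the lowest group for 12 and Banhasasim-tang high, with 1 library, for 10. The shares of all genes tested with these extremes are not reported here. CTSL and CLCN7 were called in 4 of the 21 comparisons with vehicle, and CD68, NEU1 and SQSTM1 in 3. These comparisons share the 3 vehicle libraries and are not independent of one another.

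Several members already lay outside the vehicle range at low doses, where no member was called. In the 19 low-dose libraries of all extracts, CD68, CLCN7 and TPP1 were above all vehicle libraries in 17. How often all genes tested lay outside the vehicle range is not reported here, so such counts are not a result about the members. ATP6V1B2, which read 77.2 to 78.7 CPM with vehicle, was below that range in all 19, with a median of 67.2 CPM, and ATP6V1H was below in 18. ATP6V0A1, also a pump subunit, was above all vehicle libraries in 16. The median of the pump class lay below the vehicle mean in 44 of 56 extract libraries, and the median over all genes tested in 11. A property of the vehicle libraries and a response to every extract cannot be told apart here.

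Other genes of the pathway, in lists that do not contain the members, were read beside them. Of 32 other lysosomal hydrolases, 8 rose and none fell at the Bupleuri high dose against vehicle, and of 25 other membrane and delivery proteins 5 rose. None of 10 tested further pump components changed, and 3 of 20 autophagy genes rose. Against the low dose the counts of genes that rose were 2, 4, 0 and 3, and none fell. The largest changes among the called genes of these lists against vehicle were those of RRAGD, a Rag GTPase that tethers mTORC1 signalling to the lysosome, IDUA, alpha-iduronidase, and CTNS, the cystine exporter, with COL3A1 of the marker list, lower by 1.02 on the log2 scale to 0.969 CPM.

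RRAGD read 7.37, 6.56 and 7.18 CPM at the high dose against 1.92, 1.99 and 1.89 CPM with vehicle (log2 fold change 1.86, SE 0.18, adjusted p 3.37e-09). It was also higher at the Aconiti medium dose, at 5.39 and 6.37 CPM, and at the Yijung-tang high dose, at 3.49 and 4.38 CPM. RRAGC, its paralogue, and SLC17A5, the sialic acid exporter, rose against the Bupleuri low dose by 0.91 and 0.83. CTNS rose against vehicle by 0.81 and IDUA by 0.85.

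At the Aconiti medium dose genes of the same lists were called in both directions, where 8.23% of all genes were called higher and 9.28% lower. Among the 32 hydrolases 1 rose and 5 fell, among the 25 membrane and delivery proteins 3 rose and 5 fell, and among 20 autophagy genes 4 rose. The largest changes there were in COL1A1, CDH1, LAMP3 and CD14, of which only LAMP3, at 0.64 and 0.73 CPM, was higher than with vehicle. CDH1, E-cadherin, fell from a vehicle mean of 31.0 to 5.32 CPM, and the 5 epithelial markers summed to 6463 to 6785 CPM. At the Coptidis high dose 1 of the 32 hydrolases rose and 3 fell, and 4 of the 20 autophagy genes rose and 1 fell, where 6.41% of all genes were called higher and 6.14% lower. The hydrolase share is near that of all genes, with CTSV, cathepsin V, lower by 1.02 and IDUA higher by 0.98 on the log2 scale. LAMP3 read 2.81 and 2.59 CPM there against at most 0.235 CPM with vehicle, and COL3A1 was lower by 1.11.

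In the remaining comparisons with calls, RRAGD and WIPI1, a phagophore protein, rose at the Yijung-tang high dose (1.02 and 0.72) and the Aconiti high dose (0.66 and 0.52), where CDH1 and COL1A1 were lower by 0.80 and 0.98. At the Citri high dose KRT7, ATP6V0E2 and OPTN were called higher and VMA21 lower. Their high-dose values included replicate 3, whose epithelial markers summed to 20996 CPM, against 7832 CPM in the lowest library of that group.

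The messages of the transcription factors named above were read in the same libraries. At the Bupleuri high dose TFEB read 2.68, 3.24 and 2.50 CPM against 3.52, 3.21 and 2.82 CPM with vehicle, with overlapping groups. MITF read 9.92, 10.1 and 10.4 CPM against 13.3, 12.3 and 11.8 CPM, lower without overlap but not called (log2 fold change -0.30, SE 0.11, adjusted p 0.16). TFE3 read 96.8, 100 and 97.6 CPM against 94.3, 87.7 and 95.2 CPM and was not called. At the Aconiti medium dose MITF and TFE3 rose by 0.44 and 0.26 (adjusted p 0.00816 and 0.00924), while TFEB stood at 2.11 and 1.68 CPM, with a log2 fold change of -0.75 and an adjusted p of 0.0532. TFE3 also rose at the Coptidis high dose, by 0.27 (adjusted p 0.0087), where 4 members fell. RNA levels do not show the location or activity of these factors.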

How the data were processed

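RNA of A549 cells was sequenced as directional, paired-end libraries of 100 bases on an MGI instrument, per the labels' protocols. Per the submitters' processing notes, the tools were RSEM 1.3.3, STAR 2.7.3a, Trim Galore 0.6.5 and FastQC 0.11.9, with the build hg38. Which annotation release was used is not stated in the labels. The authors deposited expected counts per gene, of which 84.4% are whole numbers; these were rounded. A further 210 columns of the table match none of the 59 samples and were not used. Gene names came from GENCODE 29 by Ensembl identifier.

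The members, lists and extra contrasts were chosen with earlier results of these data known. All 59 libraries were fitted as 25 groups with edgeR 4.0.16 (TMM, filterByExpr with a minimum count of 10, quasi-likelihood F test, Benjamini-Hochberg over 18568 genes, called below 0.05). Levels are CPM on TMM library sizes, and residual degrees of freedom were 34. Named genes are all 39 members, with every library printed for up to 6 called members of largest change in each comparison and for members called in 3 or more comparisons with vehicle; of other lists, up to 4 called genes in each comparison, and TFEB, TFE3 and MITF. No pair of libraries of a group agreed within sampling noise (chi-square per degree of freedom 2.12 or more in 46 pairs), so each counted as 1 replicate. Depth limits the genes at a few CPM most, such as CD68, TFEB and RRAGD.

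The model was tested on simulated counts before use. Alternatives were DESeq2 1.42.0, RLE size factors, no low-count filter, a fit of only the extracts compared, a replicate block, the fit without the 4 libraries that stand apart, and leaving out each library. Promoter windows are those of RefSeq.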

Additional observations from a re-analysis of the deposited data

Results flagged for a closer look

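In the library set of Bupleuri and Aconiti, the change from low to high dose differed between the extracts for 3 members by a direct test of the difference. The Aconiti change minus the Bupleuri change was -1.26 on the log2 scale for NEU1, -0.66 for CLCN7 and -0.64 for CTSA.

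In the set of Citri and Cimicifugae it differed for 4 members. The Cimicifugae change minus the Citri change was -0.96 for CTSZ, -0.62 for NAGLU, -0.45 for CTSB and -0.40 for CTSA. No call was left without Citri high replicate 3 or without Cimicifugae low replicate 2, which stand apart from the other libraries. The 4 calls also ended without any 1 Cimicifugae high library and without Citri low replicate 1 or 3. For each of the 4 calls the adjusted p of this test was highest without Cimicifugae low replicate 2, at 0.393 to 0.49. It was next highest without Citri high replicate 3. All 4 calls ended in the fit without the 4 libraries that stand apart, where the CTSZ difference was 0.0090. The cause of this was not tested.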

How the results depend on the processing

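RLE size factors gave counts of called members within 1.5 times those reported in every comparison. Among called members recalculated under settings other than leaving out 1 library, 384 results were called in the same direction, 53 lost the call and 1 changed sign: CTSZ between Cimicifugae and Citri, at 0.0090 without the 4 libraries that stand apart. The cause of the changes below was not tested unless stated. Counts of members below, and those given above for fits that leave out a library, stand without the share of all genes called under the same setting. A change in such a count is therefore not a result about the members.

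Fitting only the extracts compared, which removes the 4 libraries from most fits, called more members: 26 at Bupleuri high, 26 high against low, 6 at medium and 5 at low; 15, 19 and 7 at Aconiti high, medium and low, with 5 high against low, 16 medium against high and 19 medium against low; 27, 19 and 9 at Coptidis high, medium and low, with 21 high against low; and 15, 1 and 1 at Yijung-tang high, medium and low, with 9 high against low. It called 23 for Aconiti minus Bupleuri, 8 for Coptidis minus Zizyphi, and 0 at Citri high, Citri high against low and Cimicifugae minus Citri.

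Without the 4 libraries, the counts were 21, 1 and 1 at Bupleuri high, medium and low, with 22 high against low; 8, 14 and 1 at Aconiti high, medium and low, with 3 high against low, 12 medium against high and 16 medium against low; 16, 3 and 1 at Coptidis high, medium and low, with 4 high against low; 12 at Yijung-tang high and 5 high against low; 2 and 7 at Citri high and medium, with 0 high against low; and 2 and 4 at Cimicifugae high and medium. They were 15 for Aconiti minus Bupleuri and 0 for Cimicifugae minus Citri.

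DESeq2 called 4 members at Aconiti high, 11 at Citri high, 10 at Citri high against low, 4 at Yijung-tang high and 2 high against low, 5 for Aconiti minus Bupleuri and 12 for Cimicifugae minus Citri. Without the low-count filter the counts were 2 at Aconiti high against low, 3 at Citri medium, 2 at Coptidis high, 2 at Yijung-tang high against low and 7 for Cimicifugae minus Citri. A replicate block gave 4 at Yijung-tang high and 7 for Cimicifugae minus Citri, and 12 at Bupleuri high; all other counts with the replicate block were within 1.5 times. ATP6V1B2 lost its call between the Aconiti medium and low dose under the block (adjusted p 0.0666). The labels do not say what libraries of the same number share. In no comparison with 3 shared numbers did every same-numbered pair correlate above 0.1. For Bupleuri high against low 3 of 6 libraries correlated best with their own number (r from -0.08 to 0.25). In the set of Citri and Cimicifugae same-numbered libraries went together more. Same-numbered pairs had a median r of 0.57 (from -0.81 to 0.91) and differently numbered pairs -0.26. Between high and low dose the same-numbered r ran from 0.052 to 0.61 for Citri and from 0.031 to 0.82 for Cimicifugae. In both, 4 of 6 libraries correlated best with their own number.

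Leaving out 1 library at a time gave 9 to 11 calls at Bupleuri high, 8 to 10 high against low, 5 to 7 at Aconiti medium, 5 to 8 medium against low, 1 to 3 medium against high, 1 to 2 at Aconiti high and 1 to 1 high against low. It gave 1 to 4 at Coptidis high, 0 to 1 at Yijung-tang high and 0 to 1 high against low, 0 to 21 at Citri high, 0 to 19 high against low, 3 to 4 for Aconiti minus Bupleuri and 0 to 20 for Cimicifugae minus Citri. Where an arm was left with 1 library, that library was assumed to vary like the others. Comparisons with no member called were not refitted in this way. Groups of 2 or 3 libraries limit small changes most, and depth limits genes at a few CPM, such as CD68 with vehicle.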
